A study of Homo sapiens with 6 samples.

Results

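The nuclear pore and nuclear transport receptor genes of AC16 cells were compared after doxorubicin and after the vehicle. They were chosen by a naming rule, with earlier results of these data known. The rule took protein-coding genes named NUP with a number (with or without letters after it), and KPNA, IPO, TNPO or XPO with a number. It also took RANBP2, TPR, POM121, NDC1, AAAS, SEH1L, RAE1, GLE1, KPNB1 and CSE1L. The rule found 55 genes, 31 of them pore components and 24 transport receptors, among 19850 protein-coding genes and 58299 gene IDs in the table. Of the 55, 50 passed the filter on low counts and 5 (NUP62CL, NUP210, NUP210L, KPNA7 and IPO4) did not.

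The nuclear pore complex is a ring-shaped channel through the nuclear envelope, built from many copies of a set of nucleoporins. Outer and inner rings form the scaffold, membrane proteins anchor it, and unstructured repeats of phenylalanine and glycine fill the channel. Importins and exportins carry cargo through that channel, and the small GTPase RAN, loaded with GTP in the nucleus, decides where cargo is bound and released. In dividing human cells the pores are taken apart at mitosis and rebuilt in each daughter nucleus.

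The samples formed 2 groups of 3 libraries. The treated AC16 cells received 100 nM doxorubicin for 48 h, and the control cells received 0.1% DMSO for 48 h. AC16 is a human line made by fusing ventricular cardiomyocytes with transformed fibroblasts, so it models heart muscle only in part, and doxorubicin is an anthracycline drug that poisons type II topoisomerases. Poly(A) RNA was sequenced without strand information, and nothing in the labels ties a replicate to a culture of its own, so the p-values reflect only how much these libraries vary, a spread that may be technical.

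Libraries held 17252862 to 19571731 counts, and no library of a group repeated another within sampling noise (chi-square per degree of freedom 2.82 to 9.39). None of 10 cardiomyocyte marker genes passed the filter, and their summed level was 0.950 to 1.82 CPM after doxorubicin and 0.312 to 0.391 CPM in DMSO. CPM is a gene's count relative to the library's total, expressed per 1e6 counts and scaled here by TMM, a factor that evens out composition between libraries. MYH6, MYH7, MYL2, MYL7, NKX2-5 and RYR2 were at 0 counts in all DMSO libraries. All 10 fibroblast marker genes passed, of which 6 fell and 0 rose, with a summed level of 13453 to 17329 CPM after doxorubicin and 23408 to 25854 CPM in DMSO. Of 5 endothelial markers 1 rose and 1 fell (9.43 to 10.8 CPM in sum after doxorubicin and 14.5 to 16.6 CPM in DMSO, with CDH5 at 0 in DMSO), and of 4 smooth muscle markers 2 rose and 0 fell (212.9 to 362 CPM after doxorubicin and 289.7 to 426 CPM in DMSO). Of 12 proliferation markers, 11 fell and PCNA rose, and their summed level was 1669 to 1682 CPM after doxorubicin and 3241 to 3409 CPM in DMSO. The sum over the proliferation markers was thus lower in every doxorubicin library. PCNA alone was higher in each, with 697 to 758 CPM after doxorubicin and 301 to 321 CPM in DMSO. The part of these markers in the results below was not tested. In bulk RNA, fewer cells of a kind and less RNA per cell cannot be told apart.

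Most pore and transport receptor genes fell after doxorubicin, mostly by less than 2-fold. Of the 50 that passed the filter, 40 fell, 4 rose and 6 did not pass the test (edgeR's quasi-likelihood test, Benjamini-Hochberg adjusted p under 0.05 over 15358 genes). In the same test 32.0% of all tested genes fell and 32.7% rose. Among the 8408 more abundant protein-coding genes (average log2 CPM of 4 or more, a limit chosen after the values were seen) 42.0% fell and 32.0% rose. The share of members that fell, 80.0%, was above both backgrounds, and the share that rose, 8.0%, was below both.

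The median log2 fold change was -0.45 over the 50 members, with quartiles of -0.65 and -0.22, and -0.0013 over all tested genes, with quartiles of -0.41 and 0.52. Of the 50 members 6 (KPNA2, KPNB1, XPO1, KPNA3, IPO8 and AAAS), or 12%, fell at least 2-fold, against 6.26% of all tested genes and 5.26% of the more abundant coding genes, and 0 rose as much, against 14.2% and 7.94%. In 41 members the 3 doxorubicin libraries lay wholly below the 3 DMSO libraries, and in 4 wholly above; over all tested genes these shares were 34.3% and 34.8%, and over the more abundant coding genes 44.2% and 33.4%. Summed over the 55 genes, the level was 5937, 6231 and 6031 CPM in the doxorubicin libraries and 8928, 8849 and 8784 CPM in the DMSO libraries. The doxorubicin mean was 68.5% of the DMSO mean, and 75.3% without KPNA2 and KPNB1, the 2 largest by CPM in DMSO.

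**Figure D1:**
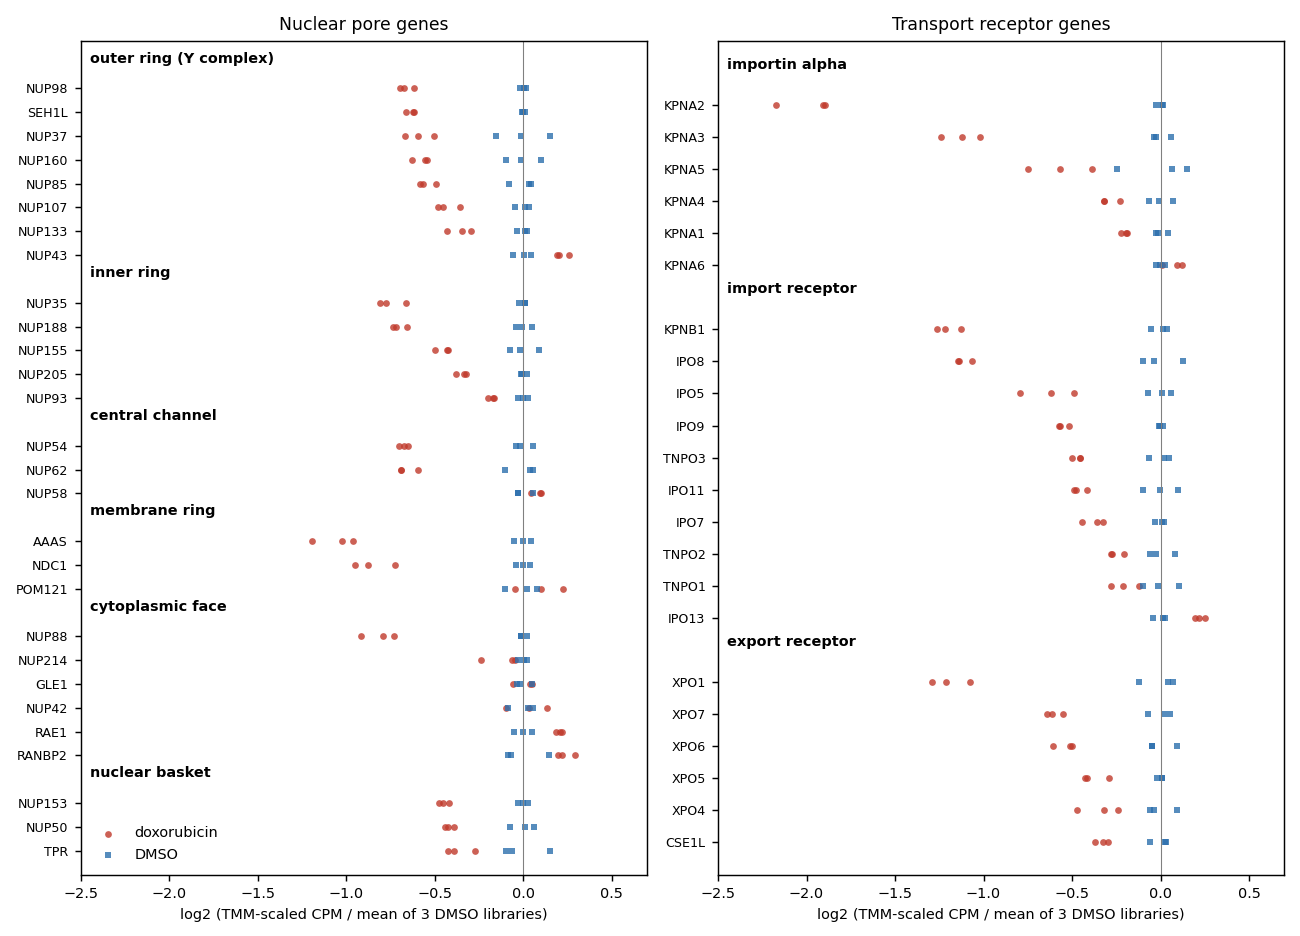
Level of each of the 50 members in each library, as log2 of TMM-scaled CPM over the mean of the 3 DMSO libraries, for 3 doxorubicin libraries (circles) and 3 DMSO libraries (squares), grouped by role. Doxorubicin circles lie wholly left of the DMSO squares in 41 members and wholly right of them in 4 (RANBP2, IPO13, NUP43 and RAE1).

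**Figure D2:**
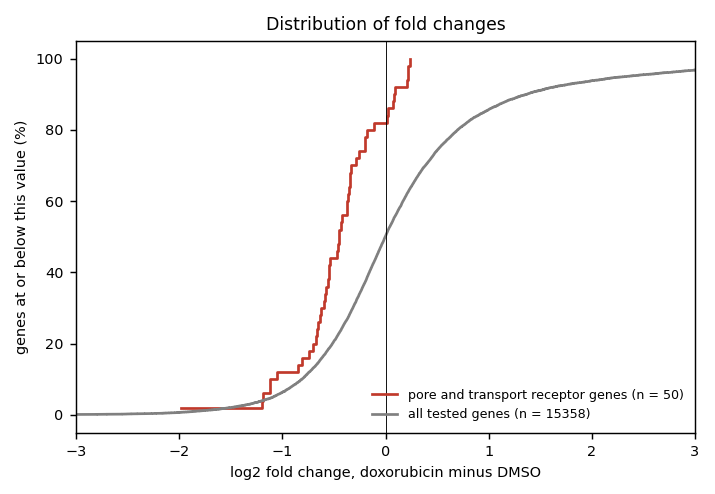
Cumulative share (%) of genes by log2 fold change, doxorubicin minus DMSO, for the 50 members and for all 15358 tested genes; the axis stops at 3 on either side. The member curve is shifted left (median -0.45 against -0.0013) and ends at 0.24, the highest member, RANBP2.

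The promoters of members that moved together were read for motifs known from cell cycle genes. RefSeq windows of 300 bases (250 before and 50 after a start, GRCh38.p14) matched 48 of the 55 members by symbol. The motifs, searched on both strands, were the CHR forms TTTGAA and TTCGAA, the E2F forms (TTCCCGC or else TTGGCGC or else TTCGCGC), and the CCAAT box; the 2 CHR forms differ at 1 base, and none of the searched motifs contains another. TTTGAA was present for 12 of the 36 matched members that fell (33.3%), for 0 of 3 that rose, for 0 of 5 that did not pass and for 0 of 4 below the filter, and for 18.2% of 27305 genes in the promoter table. An E2F form was present for 11 of 36 members that fell, 1 of 3 that rose, 2 of 5 that did not pass and 3 of 4 below the filter, and for 13.1% of genes in the table. CCAAT was present for 18 of 36 members that fell, 0 of 3 that rose, 3 of 5 that did not pass and 2 of 4 below the filter, and for 39.7% of genes in the table. The E2F forms and CCAAT were thus found in members that fell and in members that did not. Among the members that fell at least 2-fold, KPNA2 held TTTGAA, while XPO1, KPNA3, IPO8 and AAAS held neither CHR form. KPNB1 was not matched. CSE1L, which fell 1.26-fold, held both CHR forms. Whether TTTGAA goes with the fall was not tested, and few matched members rose or did not pass. The promoter table was not limited to genes that passed the filter, so its shares are not a background of expressed genes. A match describes letters in a window, not a bound site. The windows of the member that fell most, of a membrane nucleoporin that holds both CHR forms, and of the member that rose most are printed 5′ to 3′ with every searched motif in capitals.
KPNA2 promoter, chr17:68035485-68035784, plus strand: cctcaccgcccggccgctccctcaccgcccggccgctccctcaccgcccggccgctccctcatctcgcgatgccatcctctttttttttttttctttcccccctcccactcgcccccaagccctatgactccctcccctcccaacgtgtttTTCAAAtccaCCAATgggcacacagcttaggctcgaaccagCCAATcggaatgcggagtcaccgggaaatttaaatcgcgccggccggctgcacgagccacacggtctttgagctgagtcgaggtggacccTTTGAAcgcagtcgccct
NDC1 promoter, chr1:53838247-53838546, minus strand: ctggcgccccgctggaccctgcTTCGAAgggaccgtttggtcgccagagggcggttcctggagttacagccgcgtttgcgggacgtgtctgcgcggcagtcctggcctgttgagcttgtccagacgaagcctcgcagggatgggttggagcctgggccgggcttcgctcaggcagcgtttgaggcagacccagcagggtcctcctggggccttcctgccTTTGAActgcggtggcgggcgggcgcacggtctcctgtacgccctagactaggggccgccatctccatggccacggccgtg
RANBP2 promoter, chr2:108719232-108719531, plus strand: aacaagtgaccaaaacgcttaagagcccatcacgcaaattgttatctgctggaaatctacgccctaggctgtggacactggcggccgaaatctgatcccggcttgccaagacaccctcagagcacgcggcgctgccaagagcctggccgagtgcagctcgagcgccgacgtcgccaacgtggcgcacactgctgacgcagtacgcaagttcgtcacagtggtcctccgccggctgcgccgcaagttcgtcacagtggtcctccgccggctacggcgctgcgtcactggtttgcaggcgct
In KPNA2, TTTGAA begins at base 33 after the start and again, as its reverse complement, 99 bases before it, and CCAAT begins 89 and 58 bases before it. In NDC1, TTTGAA begins 31 bases and TTCGAA 228 bases before the start. The RANBP2 window holds none of the searched motifs.

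The outer ring, or Y complex, is the scaffold that coats the pore on both faces. Of its 8 genes 7 fell and NUP43 rose. NUP98 (chr11:3671083-3797792, GRCh38), whose product is cut into the channel protein NUP98 and the scaffold protein NUP96, had 102, 106 and 100.2 CPM in doxorubicin libraries and 160.2, 163 and 164 CPM in DMSO libraries. SEH1L (chr18:12947133-12987536), a subunit shared with a nutrient-sensing complex, had 81.6, 79.3 and 81.7 CPM in doxorubicin libraries and 126, 125 and 125 CPM in DMSO libraries. NUP37 (chr12:102073103-102120124), a small peripheral subunit, had 27.1, 24.2 and 25.5 CPM after doxorubicin and 42.7, 38.1 and 34.6 CPM in DMSO. Each doxorubicin library was below every DMSO library in all 3 genes. The log2 fold changes were -0.66 ± 0.06 (SE) for NUP98, -0.63 ± 0.06 for SEH1L and -0.59 ± 0.09 for NUP37, with adjusted p of 6.3e-08, 1.1e-07 and 3.1e-05 (edgeR). The long scaffold subunits fell alongside: NUP160 by 0.57, NUP85 by 0.55, NUP107 by 0.43 and NUP133 by 0.35 on the log2 scale. NUP43 (chr6:149724315-149749665), another small peripheral subunit, went the other way, with 82.4, 85.9 and 82.0 CPM after doxorubicin and 74.0, 72.0 and 69.0 CPM in DMSO. Its groups did not overlap, and it rose 1.16-fold (adjusted p = 0.0066, edgeR). Exons of other genes cover 5.03% of its exon bases, and PCMT1, on the opposite strand, shares the most and had 10256 counts against 8499 for NUP43.

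All 5 inner ring genes fell. The inner ring links the scaffold to the membrane and to the channel. NUP35 (chr2:183117513-183161680), which binds membranes, had 16.7, 18.0 and 16.3 CPM after doxorubicin and 28.8, 28.2 and 28.8 CPM in DMSO. NUP188 (chr9:128947699-129007096), a large scaffold subunit, had 170.1, 163 and 161 CPM after doxorubicin and 267, 260.3 and 277 CPM in DMSO. NUP155 (chr5:37288137-37371181), a scaffold subunit that bridges to the membrane, had 103, 108 and 108 CPM after doxorubicin and 155, 138 and 143 CPM in DMSO. Neither these nor the other inner ring genes overlapped between groups. NUP35 fell 1.68-fold, NUP188 1.63-fold and NUP155 1.37-fold (adjusted p of 1.4e-06, 3.3e-08 and 1.1e-05, edgeR). NUP205, the paralog of NUP188, fell 1.27-fold. NUP93, which holds the channel proteins in place, fell 1.13-fold, with 172 to 176 CPM after doxorubicin and 194 to 202 CPM in DMSO.

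Of the central channel proteins, which carry phenylalanine-glycine repeats and work as a trimer, NUP54 and NUP62 fell and NUP58 did not pass the test. NUP54 (chr4:76114659-76148515) had 29.4, 28.4 and 28.9 CPM after doxorubicin and 45.7, 48.1 and 44.9 CPM in DMSO, a fall of 1.60-fold (adjusted p = 7.0e-07, edgeR). NUP62 (chr19:49906825-49929763) had 126, 118 and 118 CPM after doxorubicin and 177, 198 and 195 CPM in DMSO, a fall of 1.58-fold (adjusted p = 1.9e-07). NUP58 had 87.4, 87.1 and 84.2 CPM after doxorubicin and 80.0, 84.7 and 80.0 CPM in DMSO, and its groups overlapped (log2 fold change 0.08 ± 0.06 SE, adjusted p = 0.27). Within a library, the level of NUP62 per exon length was 2.49, 2.34 and 2.42 times that of NUP58 after doxorubicin and 3.84, 4.04 and 4.22 times in DMSO, so the transcripts of trimer partners stood in another proportion in each group. The 21.1% of NUP62 exon bases that lie in exons of other genes include an overlap with opposite-strand ATF5, with 4806 counts against 17054.

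The membrane ring held the largest falls among pore components. AAAS (chr12:53307456-53324864), which encodes ALADIN, the protein mutated in triple-A syndrome, had 29.9, 26.6 and 31.2 CPM after doxorubicin and 62.8, 58.7 and 60.8 CPM in DMSO. NDC1 (chr1:53765460-53838860), a membrane nucleoporin that anchors ALADIN at the pore, had 98.9, 104 and 116 CPM after doxorubicin and 197, 191 and 186 CPM in DMSO. Neither gene overlapped between groups. AAAS fell 2.08-fold (adjusted p = 6.7e-09 in edgeR's test, log2 fold change -1.06 ± 0.08 SE), and NDC1, whose promoter is shown above, fell 1.80-fold (-0.85 ± 0.07 SE, adjusted p = 1.7e-08). POM121, another membrane nucleoporin, had 171, 157 and 142 CPM after doxorubicin and 136, 149 and 154 CPM in DMSO, with overlapping groups (log2 fold change 0.10 ± 0.07 SE, adjusted p = 0.27). Its near-identical copy POM121C, which the naming rule does not take, rose 1.37-fold, with 205, 192 and 185 CPM after doxorubicin and 126, 142 and 156 CPM in DMSO. Reads of such copies may be split between them, so neither value is certain, and with POM121, POM121C and POM121B counted together the sum rose (log2 fold change 0.29, adjusted p = 0.0024, edgeR).

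The cytoplasmic face, where exported RNA and protein leave the channel, moved in both directions: 1 of 6 genes fell, 2 rose and 3 did not pass. Its share that rose, 33.3%, was near the 32.7% of all tested genes that rose. Its share that fell was 16.7%, against 32.0% of all tested genes. Its median log2 fold change was 0.02, while the medians of the other pore roles lay between -0.85 and -0.42. NUP88 (chr17:5360963-5420160), partner of NUP214 in an export platform, had 63.8, 69.4 and 72.5 CPM after doxorubicin and 119, 119 and 122 CPM in DMSO. It fell 1.75-fold without overlap (adjusted p = 1.9e-08, edgeR); exons of other genes cover 18.7% of its exon bases, the largest overlap being with opposite-strand RPAIN, with 2756 counts against 10369. NUP214 itself had 119, 117 and 104 CPM after doxorubicin and 123, 119.8 and 125 CPM in DMSO and did not pass the test (log2 fold change -0.11 ± 0.07 SE, adjusted p = 0.14), although its groups did not overlap.

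RANBP2 (chr2:108719481-108785811), the giant filament protein that binds RAN and acts as a SUMO ligase, had 233, 245 and 229 CPM after doxorubicin and 221, 188 and 191 CPM in DMSO. It rose 1.18-fold (log2 fold change 0.24 ± 0.07 SE, adjusted p = 0.0073, edgeR), but without DMSO replicate 2 it was no longer called (adjusted p = 0.066). RANBP2 has near-identical RGPD copies on the same chromosome, of which RGPD8 had the most counts (244 after doxorubicin and 387 in DMSO), and with these added the log2 fold change was 0.21. RAE1 (chr20:57351010-57379211), an mRNA export factor that also serves the spindle checkpoint, had 85.7, 87.6 and 87.1 CPM after doxorubicin and 75.4, 78.0 and 72.7 CPM in DMSO. RAE1 rose 1.15-fold (adjusted p = 0.0090, edgeR), a call lost with no filter on low counts (adjusted p = 0.057). GLE1, which activates the RNA helicase that strips proteins from exported mRNA, and NUP42, which binds GLE1, had log2 fold changes of 0.01 ± 0.06 and 0.03 ± 0.09 (SE), and both overlapped between groups.

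All 3 nuclear basket genes fell by a similar amount. The basket faces the chromatin and takes part in import and in the quality control of mRNA. NUP153 (chr6:17615035-17706834), which tethers the basket, had 128, 131 and 126 CPM after doxorubicin and 175, 172 and 178 CPM in DMSO. NUP50 (chr22:45163841-45188015), which helps release importin cargo, had 126, 122 and 123 CPM after doxorubicin and 157, 166 and 172 CPM in DMSO. TPR (chr1:186311652-186375693), the coiled-coil protein of the basket filaments, had 182, 203 and 187 CPM after doxorubicin and 271, 228 and 234 CPM in DMSO. Every doxorubicin library was below every DMSO library in each of these genes. The falls were 1.37-fold for NUP153, 1.34-fold for NUP50 and 1.28-fold for TPR (adjusted p of 4.5e-06, 1.6e-05 and 3.9e-04, edgeR).

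Importin alpha proteins are the adaptors that recognise the classical nuclear localisation signal. Of the 6 measured importin alpha genes 5 fell and KPNA6 did not pass, and the falls ranged from 1.15-fold to 3.96-fold. KPNA2 (chr17:68035519-68046842) had 139, 168 and 167 CPM after doxorubicin and 615, 635 and 632 CPM in DMSO. It had the lowest fold change of all members (adjusted p = 1.6e-12 in edgeR's test, log2 fold change -1.99 ± 0.07 SE), and the doxorubicin libraries were far below the DMSO libraries in each case. KPNA3 (chr13:49699307-49792921) had 40.5, 47.1 and 43.9 CPM after doxorubicin and 99.6, 93.8 and 93.2 CPM in DMSO, a fall of 2.18-fold (adjusted p = 1.1e-09). KPNA4, the close paralog of KPNA3, fell 1.22-fold, with 109, 109 and 116 CPM after doxorubicin and 130.1, 143 and 135 CPM in DMSO. KPNA5 (chr6:116681187-116741866), the least abundant of the 6, had 6.14, 6.97 and 5.43 CPM after doxorubicin and 10.1, 9.53 and 7.68 CPM in DMSO, a fall of 1.47-fold (adjusted p = 0.0040). KPNA1, a close paralog of KPNA5 and KPNA6, fell 1.15-fold (adjusted p = 0.013); exons of other genes cover 16.3% of its exon bases. KPNA6 had 205, 209.6 and 194 CPM after doxorubicin and 196, 192 and 189 CPM in DMSO, with overlapping groups (log2 fold change 0.07 ± 0.06 SE, adjusted p = 0.29).

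The make-up of the adaptor pool differed between the groups as well as its size. By CPM per kilobase of exon, KPNA2 made up 44.7%, 48.5% and 49.3% of the importin alpha total in the doxorubicin libraries and 73.6%, 74.3% and 74.6% in the DMSO libraries. KPNA6 made up 27.6%, 25.3% and 24.0% after doxorubicin and 9.85%, 9.46% and 9.38% in DMSO. These shares are taken within a library and do not depend on scaling between libraries. They do depend on the exon length used, which joins all annotated exons of a gene and can exceed the length of its transcripts. The ratio of KPNA2 to KPNA6 was 1.62, 1.91 and 2.06 after doxorubicin and 7.47, 7.85 and 7.96 in DMSO. The shares of KPNA4 and KPNA1 were also larger after doxorubicin (11.2% ± 0.635 and 5.93% ± 0.377, SD, n = 3) than in DMSO (5.36% ± 0.193 and 2.68% ± 0.0629, SD, n = 3), although the levels of both genes fell. The summed importin alpha level was 554, 593 and 579.9 CPM after doxorubicin and 1111, 1133 and 1120.2 CPM in DMSO.

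**Figure D3:**
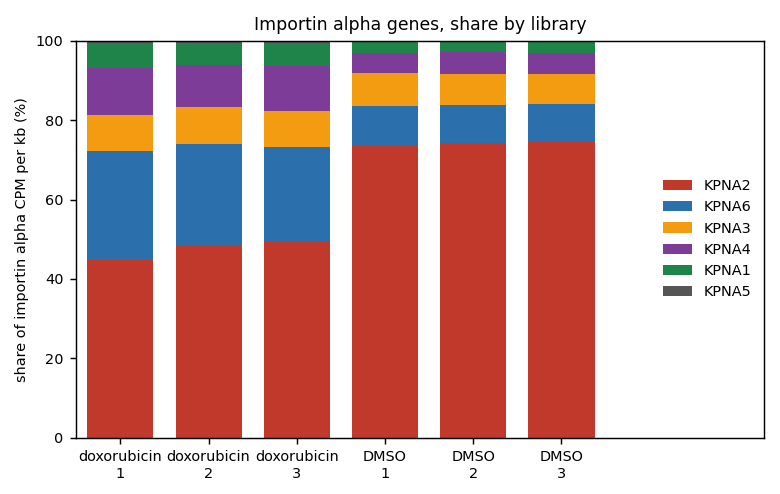
Share (%) of each importin alpha gene in the summed CPM per kilobase of exon of the family, as stacked bars for the 3 doxorubicin and the 3 DMSO libraries; KPNA7, at most 0.0663%, is left out of the drawing. KPNA2 fills 44.7% to 49.3% of the doxorubicin bars and 73.6% to 74.6% of the DMSO bars.

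The import receptors of the importin beta family bind cargo, or an adaptor with its cargo, and pass through the channel. Of the 10 measured 9 fell and IPO13 rose. KPNB1 (chr17:47649476-47685505), importin beta itself and the partner of all importin alpha proteins, had 376, 414 and 389 CPM after doxorubicin and 912, 926 and 872 CPM in DMSO. IPO8 (chr12:30628988-30695986) had 54.7, 51.9 and 51.8 CPM after doxorubicin and 125, 111 and 107 CPM in DMSO. IPO5 (chr13:97953658-98024297), a carrier of ribosomal proteins, had 240.1, 297 and 271 CPM after doxorubicin and 397, 419 and 434 CPM in DMSO. The groups were apart in all 3 genes, with IPO5 the most spread within doxorubicin. KPNB1 fell 2.30-fold (log2 fold change -1.20 ± 0.06 SE, adjusted p = 7.8e-11, edgeR), IPO8 2.17-fold (-1.12 ± 0.07 SE, adjusted p = 1.2e-09) and IPO5 1.55-fold (-0.63 ± 0.07 SE, adjusted p = 1.5e-06). IPO9, a histone carrier, fell 1.47-fold, TNPO3, the carrier of SR splicing factors, 1.38-fold, and IPO7, the paralog of IPO8, 1.30-fold. IPO11 also fell 1.38-fold, with 22.6% of its exon bases in exons of other genes. The transportins TNPO1 and TNPO2, which carry RNA-binding proteins, fell 1.15-fold and 1.19-fold, and TNPO1 was no longer called without DMSO replicate 1 (adjusted p = 0.070) or without doxorubicin replicate 3 (adjusted p = 0.056). IPO13 (chr1:43946939-43968022), a receptor that works in both directions, had 87.8, 86.5 and 90.0 CPM after doxorubicin and 76.5, 73.6 and 76.9 CPM in DMSO. IPO13 was above DMSO in every doxorubicin library and rose 1.16-fold (adjusted p = 0.0054, edgeR).

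All 6 export receptor genes fell, and none overlapped between groups. XPO1 (chr2:61477849-61538626), the exporter of proteins with a leucine-rich export signal and the target of leptomycin B, had 156, 181 and 165 CPM after doxorubicin and 402, 393 and 352 CPM in DMSO. XPO7 (chr8:21919671-22006585), a receptor with broad cargo, had 80.6, 84.0 and 78.9 CPM after doxorubicin and 125, 117 and 128 CPM in DMSO. XPO6 (chr16:28097979-28211920), the exporter of actin, had 245, 264 and 262 CPM after doxorubicin and 361, 361 and 399 CPM in DMSO. XPO1 stood furthest from its DMSO level, falling 2.28-fold (log2 fold change -1.19 ± 0.07 SE, adjusted p = 5.2e-10, edgeR), while XPO7 fell 1.52-fold and XPO6 1.45-fold (adjusted p of 4.3e-07 and 1.5e-06). XPO5, which exports microRNA precursors, fell 1.30-fold, XPO4 1.27-fold and CSE1L, which returns importin alpha to the cytoplasm, 1.26-fold. By CPM per kilobase, XPO1 made up 7.80%, 8.47% and 7.96% of the total over these 6 genes after doxorubicin and 13.7%, 13.5% and 12.3% in DMSO. That total leaves out the tRNA exporter XPOT. CSE1L made up 56.6%, 55.8% and 56.7% after doxorubicin and 51.0%, 51.5% and 49.3% in DMSO. These shares, too, depend on the joined exon length, 3800 bases for CSE1L and 11708 for XPO1. Without division by length, the DMSO means were 477 CPM for CSE1L and 382 CPM for XPO1. Transport receptors together had 20 falls, 1 rise and 1 gene that did not pass, and pore components 20 falls, 3 rises and 5 that did not pass.

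Levels between members were compared per kilobase of exon, with all annotated exons of a gene joined, so the order depends on that length. In DMSO the order began with KPNA2 at 199.8 CPM per kilobase, followed by CSE1L at 125, KPNB1 at 118 and XPO6 at 52.9. After doxorubicin it began with CSE1L at 99.7 CPM per kilobase, followed by KPNB1 at 51.2, KPNA2 at 50.4 and XPO6 at 36.4. The SDs over 3 libraries were 2.51 for KPNB1 and 5.23 for KPNA2 after doxorubicin, so those neighbours did not differ beyond their spread. XPO1 stood 9th of 55 in DMSO and 25th after doxorubicin, whereas KPNA6 stood 14th in DMSO and 7th after doxorubicin. KPNA5 was the lowest of the 50 measured members in both groups (0.541 CPM per kilobase after doxorubicin and 0.798 in DMSO). Across the 50 members the log2 fold change had Spearman's rho of 0.05 with genomic span, 0.21 with exon length and -0.04 with mean log2 CPM; these are descriptions over genes measured in the same 6 libraries. The members lie on 20 chromosomes, 7 of them on chromosome 1 and 5 on chromosome 7.

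**Figure D4:**
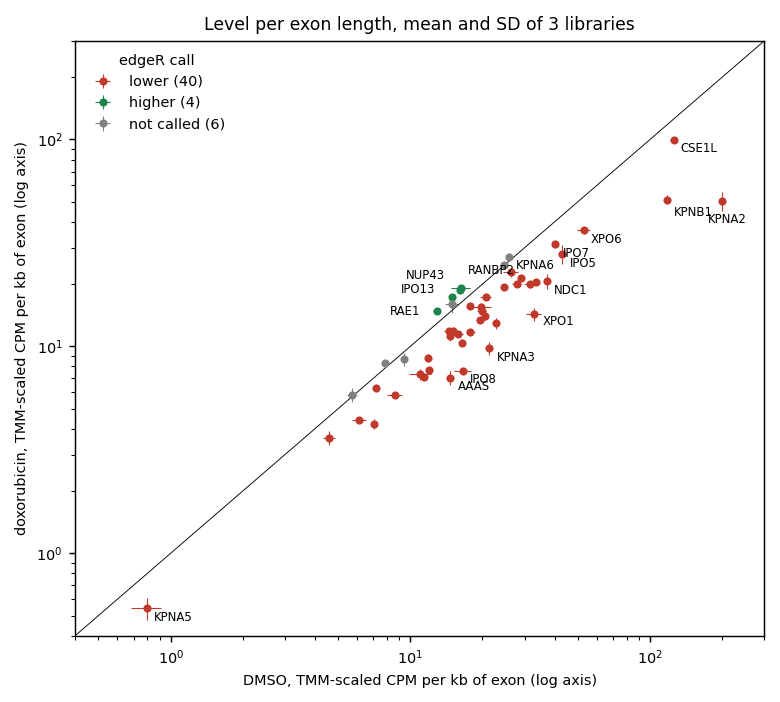
Mean TMM-scaled CPM per kilobase of exon after doxorubicin (vertical) against DMSO (horizontal), both on log axes, for the 50 members; bars are SDs over 3 libraries, colours give the edgeR call and the line marks equal levels. Most points lie below the line, with KPNA2 the farthest from it (50.4 after doxorubicin against 199.8 in DMSO).

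The RAN cycle, which gives transport its direction, was followed with a list of 8 genes: 6 fell, NUTF2 rose and RANBP3L did not pass. Among all tested genes 32.0% fell and 32.7% rose, and among the more abundant coding genes 42.0% fell and 32.0% rose. Falls in this list were thus more frequent than in both backgrounds, and rises less frequent. RCC1 (chr1:28505943-28539300), the exchange factor that loads RAN with GTP on chromatin, had 70.2, 70.1 and 72.3 CPM after doxorubicin and 161, 167 and 181 CPM in DMSO. RAN (chr12:130871879-130877678) had 385, 378 and 405 CPM after doxorubicin and 674, 696 and 727 CPM in DMSO. Groups were apart in both. RCC1 fell 2.39-fold (adjusted p = 7.0e-11 in edgeR's test, log2 fold change -1.26 ± 0.06 SE) and RAN 1.79-fold (-0.84 ± 0.06 SE, adjusted p = 4.5e-09). RANGAP1, which triggers GTP hydrolysis by RAN in the cytoplasm, fell 1.72-fold, its cofactor RANBP1 1.48-fold and the XPO1 cofactor RANBP3 1.20-fold. RANGRF, with 82.0% of its exon bases in exons of other genes and at most 2.96 CPM in any library, fell 1.56-fold with overlapping groups. Its call was lost with DESeq2 (adjusted p = 0.13) and in edgeR's test without DMSO replicate 1 (adjusted p = 0.11), DMSO replicate 2 (0.080), doxorubicin replicate 2 (0.12) or doxorubicin replicate 3 (0.11), which leaves 5 RAN cycle genes that fell. NUTF2, which carries RAN with GDP back into the nucleus, rose 1.24-fold, with 206, 195 and 203 CPM after doxorubicin and 162, 155 and 172 CPM in DMSO. The median over these genes was -0.61 on the log2 scale.

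Of 18 measured mRNA export genes, from 20 in the list, 9 fell, 3 rose and 6 did not pass (median of -0.19 on the log2 scale). The share that fell, 50%, was near the 42.0% of the more abundant coding genes that fell and above the 32.0% of all tested genes. The share that rose, 16.7%, was below the 32.0% and 32.7% that rose in these backgrounds. The paralogous export helicases moved in opposite directions. DDX39A had 97.0, 92.3 and 99.3 CPM after doxorubicin and 173, 187 and 189 CPM in DMSO, a fall of 1.90-fold (adjusted p = 2.3e-09, edgeR). DDX39B had 109, 131 and 122 CPM after doxorubicin and 79.2, 95.0 and 93.7 CPM in DMSO, a rise of 1.35-fold (adjusted p = 2.6e-04); 30.8% of its exon bases lie in exons of other genes. THOC6 had 31.8, 28.7 and 30.6 CPM after doxorubicin and 48.1, 49.2 and 54.3 CPM in DMSO. It fell 1.66-fold and THOC1 1.64-fold, both subunits of the THO complex that couples transcription to export, and THOC5 and THOC7 of the same complex fell too. THOC2 and THOC3, also of the THO complex, overlapped between groups and did not pass (log2 fold changes of -0.13 and -0.10, adjusted p of 0.17 and 0.29, edgeR). ALYREF, PCID2, MCM3AP and NCBP1 also fell, and ENY2 and NCBP2 also rose. SARNP and ZC3H11A were below the filter, and 38.5% and 93.6% of their exon bases lie in exons of other genes.

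**Figure D5:**
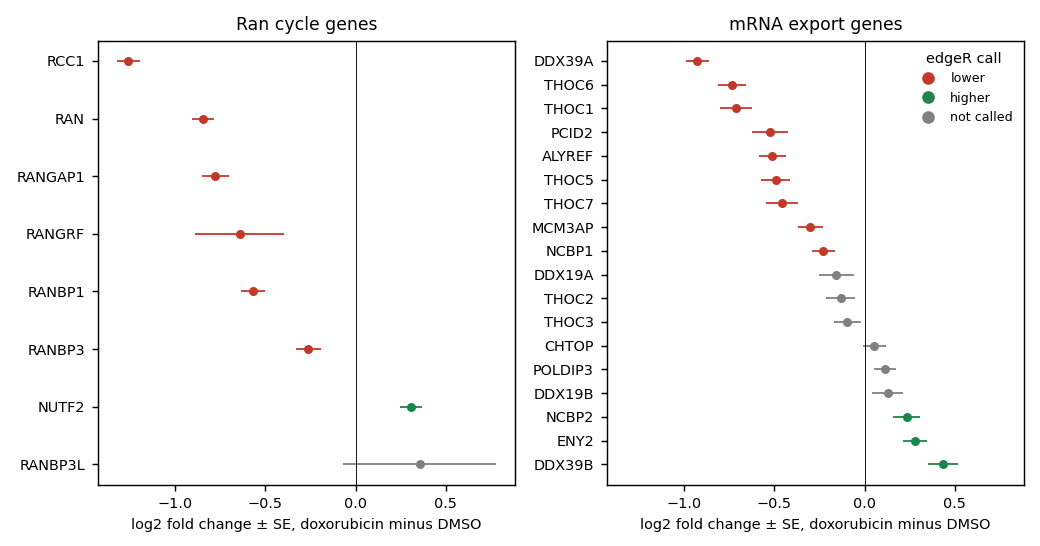
Log2 fold change, doxorubicin minus DMSO, with its SE for the 8 RAN cycle genes and the 18 measured mRNA export genes; colours give the edgeR call. RCC1 (-1.26) and DDX39A (-0.93) are the lowest of their lists, and NUTF2 (0.31), DDX39B (0.44), ENY2 (0.28) and NCBP2 (0.23) were called higher.

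Other pore and carrier genes that the naming rule leaves out were counted too. Of 5 pore-associated genes AHCTF1 and CENPF fell, POM121C rose, and SEC13 and TMEM33 did not pass. Falls, at 2 of 5, were about as frequent as the 42.0% among the more abundant coding genes. They were somewhat more frequent than the 32.0% among all tested genes. Rises, at 1 of 5, were less frequent than the 32.0% and 32.7% in these backgrounds. This list's median log2 fold change was 0.06. AHCTF1, which encodes ELYS, the protein that seeds new pores on chromatin, had 108, 112 and 109 CPM after doxorubicin and 151, 141 and 145 CPM in DMSO, a fall of 1.33-fold (adjusted p = 1.7e-05, edgeR). CENPF, a kinetochore protein that binds NUP133 at mitosis, fell 3.40-fold, with 95.1, 131 and 124 CPM after doxorubicin and 435, 384 and 372 CPM in DMSO. Of 7 further receptors and carriers 5 fell, RANBP17 rose and NXF1, the bulk mRNA exporter, did not pass (log2 fold change 0.15 ± 0.07 SE, adjusted p = 0.066, edgeR). That is 71.4% that fell, against 32.0% of all tested genes and 42.0% of the more abundant coding genes. It is 14.3% that rose, against 32.7% and 32.0%. SNUPN, the adaptor that imports spliceosomal RNA particles, fell 2.01-fold, with 7.95, 7.28 and 7.22 CPM after doxorubicin and 14.9, 13.4 and 16.8 CPM in DMSO; 31.6% of its exon bases lie in exons of other genes. RANBP17, a member of the importin beta family, rose 1.53-fold, with 7.78, 7.81 and 6.27 CPM after doxorubicin and 4.69, 5.42 and 4.14 CPM in DMSO. The tRNA exporter XPOT, the heat shock protein carrier HIKESHI, and NXT1 and NXT2, partners of NXF1, fell as well.

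The 5 members below the filter had few counts in every library. NUP62CL, a relative of NUP62, had 6, 3 and 4 counts in the doxorubicin libraries and 0 in all DMSO libraries. The ratio was 4.40 when DMSO was set to 3 counts in all, or 0.0543 CPM. That ratio takes the 13 doxorubicin counts as exact, so it is not a lower limit. NUP210L, a relative of the membrane nucleoporin NUP210, had 10, 4 and 8 counts after doxorubicin and 2, 1 and 0 in DMSO. Both lay higher in each doxorubicin library and were called higher when no filter was used (adjusted p of 0.0031 and 0.0050, edgeR) and by DESeq2 (adjusted p of 0.024 and 0.048). In the same fits the median log2 fold change over all genes was also positive, 0.37 with no filter and 0.40 with DESeq2. With the filter it was -0.0013. NUP210 had 6, 4 and 0 counts after doxorubicin and 0, 2 and 0 in DMSO, and KPNA7, an importin alpha of early embryos, had 2, 1 and 1 counts after doxorubicin and 0 in DMSO. IPO4 had 6, 5 and 5 counts after doxorubicin and 3, 8 and 6 in DMSO. Of the IPO4 exon bases 70.1% lie in exons of other genes, 69.3% in a same-strand protein-coding gene that had 3 counts, so its level is uncertain.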

How the data were processed

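The authors deposited raw counts, summed over the exons of each gene, 1 column per library, in the featureCounts layout per the file headers. Tools named in the submitters' processing notes are STAR, SAMtools, Subread and featureCounts, with GRCh38 (hg38) as the build; versions, settings and the treatment of overlapping genes are not given there. Libraries were poly(A)-selected and unstranded per the labels' protocols, so a gene and an opposite-strand partner cannot be told apart. Gene names came from a gene name table (57717 of 58299 IDs) and types from GENCODE release 29. Coordinates are 1-based, from the table. No columns of other samples were present (0).

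The test was edgeR's (version 4.0.16, R 4.3.3) robust quasi-likelihood F test, two-sided and with no covariate, after filterByExpr (minimum count 10, minimum total 15) and TMM scaling. Adjusted p-values are Benjamini-Hochberg over all 15358 genes. Each SE was obtained from the log2 fold change and the square root of F. Levels are TMM-scaled CPM. The fit was tested on simulated data, where it recovered 72.6% of 1.5-fold, 92.0% of 2-fold and 100% of 4-fold changes. Of 14866 unchanged genes it called 18. Changes below 1.5-fold were not simulated. Alternatives were DESeq2 1.42.0, other scalings and filters, summed copies, a block for the replicate number and fits lacking 1 library. The relative sampling error of a count grows as the count falls; floors cover counting error only.

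The members and lists were chosen with earlier results of these data known. Values per library are given for the 3 called members with the largest change in each role, for the 5 highest and 5 lowest, and for those against their role's direction; KPNA4, NUP58, NUP214 and KPNA6 were added after their values were seen. For the other lists, genes that were called are named, with values for the 2 largest changes. NUTF2, DDX39B, AHCTF1 and the members below the filter were added likewise. Protein sequences were not used here, so repeats in the nucleoporins were not counted.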

Additional observations from a re-analysis of the deposited data

How the results depend on the processing

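Under 15 alternative settings 39 or 40 members were called lower, 39 of them under every setting, and 3 to 6 were called higher. The 6 with DESeq2 and the 5 with no filter include members below the filter, and the 5 with summed copies include POM121. The median log2 fold change of the members was -0.41 with library totals only, and -0.47 to -0.43 when a library was left out. Among the other receptors and carriers 2 genes were called higher with RLE scaling, upper-quartile scaling, library totals only or a filter of 1 CPM in 3 libraries, and 1 to 2 when a library was left out. Among the other pore genes 0 were called higher once POM121C was summed with POM121. The sign of GLE1 and NUP42, not called under any setting, turned: with no filter they were -0.0180 and -0.0033, and with a library left out they ranged from -0.0115 to 0.0437 for GLE1 and from -0.0299 to 0.0840 for NUP42. Of 750 member values under the alternatives, 738 kept their direction and side of the threshold. Same-numbered libraries did not deviate together (correlations of 0.05, -0.02 and 0.03), and not every library correlated best with its own number (DMSO replicates 2 and 3 and doxorubicin replicate 2 did not); with the replicate number as a block, 40 members were lower and 4 higher. Over all genes, 6100 were called higher and 5190 lower with no filter. Having 3 libraries a group limits the precision of small changes: the members that rose did so by at most 1.18-fold.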
